A study of Mus musculus with 12 samples.

Results

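Glutathione and antioxidant enzyme genes were examined in endothelial cells sorted from mesentery and epididymal fat of mice fed chow or fat-rich food. The set holds 44 of the 27825 genes in the deposited table: the protein-coding genes whose symbols name glutathione S-transferases of the alpha, mu, pi, theta, kappa and omega classes, glutathione peroxidases, peroxiredoxins, superoxide dismutases or the thioredoxin system, together with catalase, the enzymes of glutathione synthesis and haem oxygenase 1. The choice rests on symbols and on the biotype given in the table, not on measured values. The animals were male ROSA26-eYFP+/+ Cdh5-CreERT2+ mice, in which a Cre recombinase driven by the endothelial gene Cdh5 switches on a yellow fluorescent protein after tamoxifen. All groups carried these alleles and were given tamoxifen in the food at 6 weeks of age, over 2 weeks. Normal chow (5.8% fat) or a high fat diet (HFD, 60% fat) followed at 8 weeks and lasted 12 to 13 weeks. Tissue of 6 mice was combined per sample, digested with the transcription blocker actinomycin D present, and sorted, and RNA-seq gave 12 libraries in 4 groups of 3, named here by the letters A, B and C of their titles. Because the protocol text mentions only 2 independent replicates while titles give 3 letters, libraries within a group might share a source, and p-values measure the spread between libraries.

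These enzymes divide the removal of reactive oxygen species and reactive electrophiles among them. Superoxide dismutases turn superoxide into hydrogen peroxide, which catalase, glutathione peroxidases and peroxiredoxins reduce further. Glutathione S-transferases join glutathione to electrophiles, many of them products of lipid peroxidation, and the thioredoxin system keeps most peroxiredoxins and other proteins reduced. Many of the genes are induced through the transcription factor Nrf2, encoded by Nfe2l2, which Keap1 holds in check. In vessels, hydrogen peroxide and superoxide are also signals that affect nitric oxide and vascular tone.

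Values are the authors' normalized counts, which scale each library by a size factor. Library totals lay between 8348897 and 25397963 reads on the listed genes, and 3 reads corresponded to 2.12 to 4.22 normalized counts, depending on the library. The 12 endothelial markers examined were present in every group and summed to 108559 to 164236 normalized counts in mesentery, 84371 to 102569 in epididymal fat on chow and 47057 to 88835 there on HFD. Markers of other cells were also present. The 12 adipocyte markers summed to 71477 to 95856 in epididymal fat on chow, 7476 to 19367 there on HFD and 6201 to 12763 in mesentery, with none at 0. The 14 macrophage markers summed to 6489 to 87970.5 in epididymal fat on chow and 154407 to 390839 on HFD, against 1582 to 7981 and 4679 to 25949 in mesentery on those diets, with none at 0. The 10 fibroblast markers summed to 19816 to 68658 in epididymal fat and 5073 to 10862 in mesentery, with none at 0. The 13 pancreatic acinar markers summed to 52908 to 332482 in mesentery and 187 to 568 in epididymal fat, where Amy2b was at 0 in all chow libraries and Prss2 in all HFD libraries. The 10 smooth muscle and pericyte markers summed to 13971 to 25200.1 in epididymal fat on chow, 7008 to 13637 there on HFD and 3171 to 5906 in mesentery, with none at 0. The 8 mesothelial markers found summed to 1289 to 1919, 443 to 851 and 197 to 353 in the same order, with Wt1 at 0 in all mesentery chow libraries. The 5 red blood cell markers found summed to 31946 to 44022 in epididymal fat and 177 to 432 in mesentery, with none at 0. Mitochondrial genes took at most 5.94% of the reads in epididymal fat and 5.67% to 20.6% in mesentery, where chow library A stood highest and the next library had 11.5%. The part of these markers and reads in the differences below was not tested, and in bulk samples fewer cells of a type and less RNA per cell cannot be told apart.

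Promoters were matched by symbol to RefSeq windows of the GRCm38.p6 build that run from 250 bases before to 50 bases after a gene's start, and 38 of the 44 genes had at least 1 window. The core of the antioxidant response element, the motif bound by Nrf2 (TGACNNNGC, either strand), occurred in 7 of the 47 windows of these genes (14.9%), those of Gclm, Gsta3, Gstm5, Gstm7, Prdx1, Sod1 and Txnrd1, near the 12.4% of all 32851 windows that hold it. The windows of 3 genes are shown because these genes carry the main differences: Gsta3 fell with the diet in epididymal fat, Prdx1 had its highest values there, and Gpx3 differed most between the tissues. Capitals mark the antioxidant response element core and, in Prdx1, a TATA box (TATAAA).
Gsta3 (chr1:21240335-21240634, + strand): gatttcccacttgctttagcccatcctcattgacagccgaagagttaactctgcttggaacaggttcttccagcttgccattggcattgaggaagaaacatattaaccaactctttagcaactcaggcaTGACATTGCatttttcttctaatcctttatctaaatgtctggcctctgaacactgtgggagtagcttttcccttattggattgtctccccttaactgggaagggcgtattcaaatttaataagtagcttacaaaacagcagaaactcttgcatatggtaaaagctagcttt
Prdx1 (chr4:116685349-116685648, + strand): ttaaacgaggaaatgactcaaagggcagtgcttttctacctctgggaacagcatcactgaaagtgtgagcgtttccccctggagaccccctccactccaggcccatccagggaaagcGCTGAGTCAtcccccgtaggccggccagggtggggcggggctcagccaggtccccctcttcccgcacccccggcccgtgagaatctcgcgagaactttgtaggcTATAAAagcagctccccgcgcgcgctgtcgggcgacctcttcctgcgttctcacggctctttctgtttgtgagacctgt
Gpx3 (chr11:54902604-54902903, + strand): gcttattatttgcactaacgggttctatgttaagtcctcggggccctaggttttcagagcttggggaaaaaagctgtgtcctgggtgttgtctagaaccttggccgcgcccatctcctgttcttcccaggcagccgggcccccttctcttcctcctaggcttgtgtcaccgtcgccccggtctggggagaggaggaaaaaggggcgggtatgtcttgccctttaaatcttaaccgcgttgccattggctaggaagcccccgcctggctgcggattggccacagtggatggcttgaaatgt
The core begins 121 bases before the start in Gsta3 and, on the opposite strand, 133 bases before it in Prdx1, whereas neither motif is in the Gpx3 window. A match of letters is a description and shows neither binding nor use. TATAAA occurred in 8 of the 47 windows (17.0%) and in 13.6% of all windows. The core of the xenobiotic response element (TNGCGTG, either strand) was also searched and occurred in 2 windows, those of Gsta2 and Txnip (4.26%), against 5.07% of all windows.

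The first comparison asked how the tissues differed on chow. Antioxidant enzyme transcripts were higher in epididymal fat: 14 of the 41 genes tested passed the threshold (limma, adjusted p under 0.05), all of them higher there, while 12.8% of all genes tested passed in either direction and 7.32% passed as higher. The 14 genes were Gpx3, Sod3, Gstt1, Gsta3, Gstt2, Hmox1, Gstm4, Gsto1, Gstm5, Cat, Gsta4, Prdx6, Gstt3 and Prdx3, in order of their log2 difference from 4.06 to 0.88. The log2 difference was above 0 for 35 genes, against 46.8% of all genes. The libraries of the tissues did not overlap for 25 genes, 24 higher in epididymal fat and 1, Prdx4, lower, against 28.7% of all genes (16.0% higher and 12.7% lower). The median log2 difference was 0.73, beside -0.08 over all genes tested. Markers of other cells also passed as higher in epididymal fat on chow: 11 of 12 adipocyte, 6 of 14 macrophage, 8 of 10 fibroblast, 7 of 10 smooth muscle and pericyte, 5 of 7 mesothelial and 4 of 4 red blood cell markers tested. Passing as lower there were 5 of 12 endothelial (2 were higher) and 12 of 13 pancreatic acinar markers, and 1 smooth muscle and pericyte marker. With the columns rescaled to the same total 20 genes of the set passed, and 19 with the range of the library numbers as a covariate. DESeq2 on the recovered reads called 16.

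On HFD 8 of the 41 genes passed, all higher in epididymal fat, while 8.34% of all genes tested did so in either direction and 4.91% as higher. Gpx3, Gsto1, Sod3, Hmox1, Gstt1 and Gstt2 had also passed on chow, and Prdx1 and Gpx7 were added. Libraries did not overlap for 15 genes, 14 higher and 1, Txnip, lower, against 26.4% of all genes (15.1% higher and 11.2% lower), and the median log2 difference was 0.33, beside 0.06 over all genes tested. On this diet 1 of 12 adipocyte markers passed as higher in epididymal fat (1 was lower), as did 11 of 14 macrophage, 10 of 10 fibroblast, 4 of 10 smooth muscle and pericyte (1 was lower), 2 of 7 mesothelial and 4 of 4 red blood cell markers. Endothelial markers passed as lower there in 7 of 12 cases and as higher in 1, and 12 of 13 pancreatic acinar markers were lower. With edgeR's quasi-likelihood test on the recovered reads 5 genes passed, and with DESeq2 11 did. With the columns rescaled to the same total 6 passed, 5 higher and 1, Gclc, lower.

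**Figure D1:**
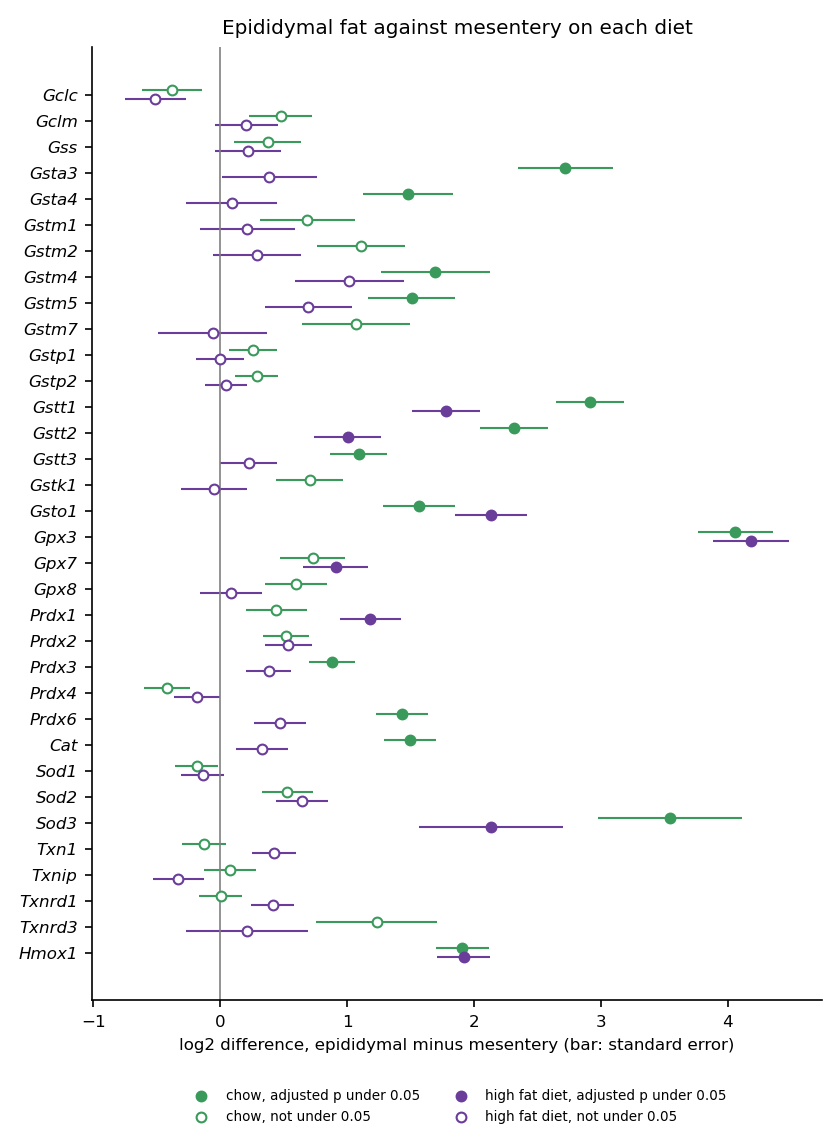
Log2 difference between epididymal fat and mesentery (x axis, bars are standard errors) for the 34 genes with a mean of at least 50 normalized counts other than Gpx5, on chow (green) and on HFD (purple), with filled points for an adjusted p under 0.05 (limma). Filled points all lie to the right of 0, and Gpx3 lies farthest to the right on both diets.

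The diet in epididymal fat was tested next. A single gene of the 41, Gsta3, passed and was lower on HFD, and 0.549% of all genes tested passed in this contrast, 0.13% as lower. Libraries of the diets did not overlap for 18 genes, against 13.5% of all genes (6.93% higher and 6.57% lower): Gsto1, Hmox1, Prdx1 and Txn1 were higher in every HFD library than in any chow library, and 14 genes were lower. An unadjusted p under 0.05 was reached by 15 genes, or 36.6% of those tested, beside 6.94% of all genes. The log2 change was above 0 for 11 genes, against 57.9% of all genes. The median log2 change was -0.27, beside 0.10 over all genes tested. Among the markers, 1 of 14 macrophage markers, Trem2, and 3 of 10 fibroblast markers passed as higher on HFD, and 3 of 12 adipocyte markers as lower. Their median log2 changes were 3.13, 1.61 and -1.70 in that order. No endothelial, pancreatic acinar, smooth muscle and pericyte, mesothelial or red blood cell marker passed. With DESeq2 on the recovered reads 7 genes passed: Gsta3, Gsta4, Gstk1 and Gstp2 lower, and Gsto1, Hmox1 and Prdx1 higher.

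None of the 41 genes passed the diet contrast of mesentery in limma, and 0.0135% of all genes did. An unadjusted p under 0.05 was reached by 3 genes of the set, or 7.32% of those tested, beside 6.15% of all genes. The edgeR test called 0 genes and gave 2 an unadjusted p under 0.05, and DESeq2 called 2, Cat and Hmox1, both higher on HFD. Libraries did not overlap for 7 genes, 5 higher and 2 lower, against 9.61% of all genes (4.47% higher and 5.14% lower). The log2 change was above 0 for 23 genes, against 49.7% of all genes. The median log2 change was 0.14, beside -0.0023 over all genes tested.

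**Figure D2:**
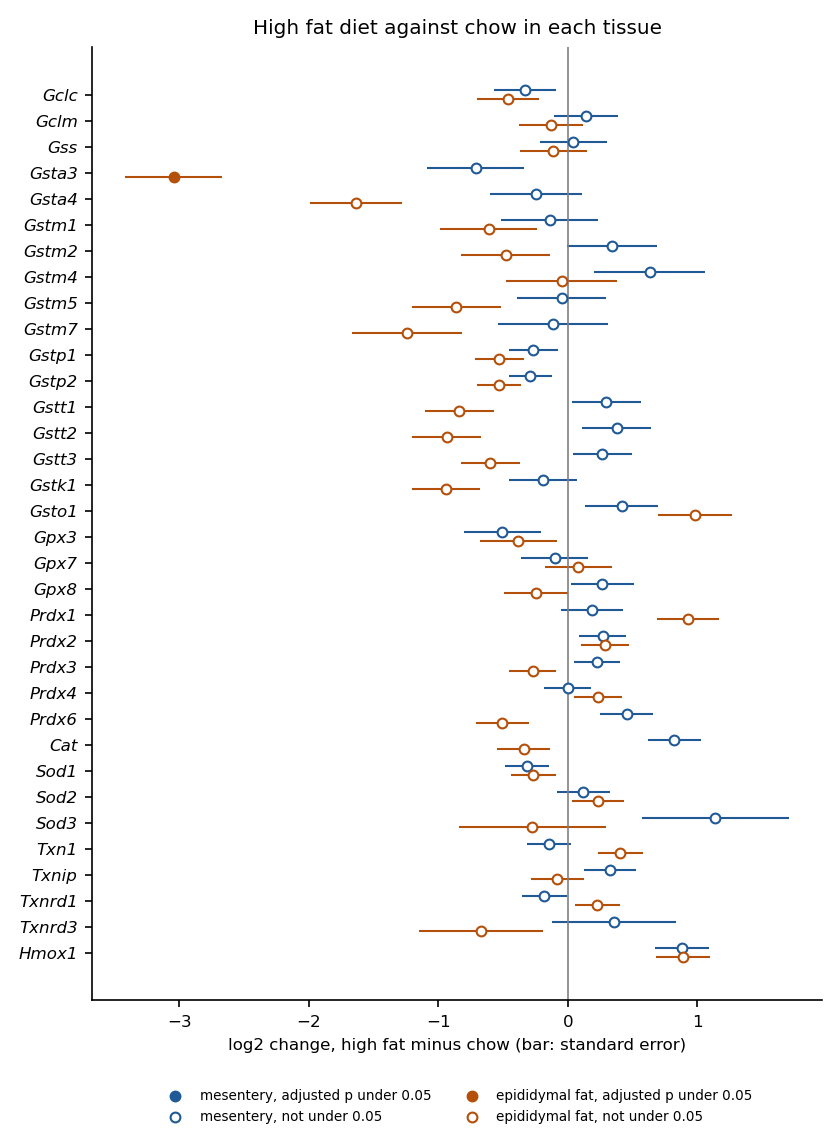
Log2 change on HFD (x axis, high fat minus chow, bars are standard errors) in mesentery (blue) and epididymal fat (orange) for the 34 genes with a mean of at least 50 normalized counts other than Gpx5, with filled points for an adjusted p under 0.05 (limma). Gsta3 in epididymal fat, at -3.04, is the only filled point, and Hmox1 lies at almost the same place in both tissues.

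Glutathione is made by glutamate-cysteine ligase, whose catalytic subunit is Gclc and whose modifier subunit is Gclm, and by glutathione synthetase, Gss. None of these genes passed in any contrast at the limma settings used throughout, but Gclc passed as lower in epididymal fat on HFD with the columns rescaled to the same total, and Gclm as higher on chow without mesentery chow library B. Gclc ranged over 411 to 642 normalized counts in mesentery on chow, 329 to 521 there on HFD, 367 to 450.0 in epididymal fat on chow and 255 to 349.6 on HFD. Its lowest group was epididymal fat on HFD, where the log2 difference from mesentery was -0.51 (SE 0.237, adjusted p 0.241). Gclm averaged 569.9 ± 232 and 597 ± 69.0 in mesentery and 749 ± 27.5 and 687 ± 57.8 in epididymal fat, on chow and HFD in turn (SD, n = 3). Gss ranged over 168 to 349 normalized counts over all 12 libraries.

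Alpha class transferases act on reactive aldehydes such as 4-hydroxynonenal. Gsta3 (ENSMUSG00000025934) was at 1039, 1345 and 1443 normalized counts in epididymal chow libraries A, B and C and at 161, 244 and 90.6 in the HFD libraries. In mesentery it was at 209.5, 127 and 260.5 on chow and 79.5, 149.7 and 132 on HFD. The 3 epididymal chow libraries thus stood above the other 9, which overlapped one another. With HFD in epididymal fat, the log2 value of Gsta3 fell by 3.04 (SE 0.375, adjusted p 0.00375, limma), an 8.23-fold lower level, and Gsta3 was 6.59-fold higher there on chow than in mesentery (log2 2.72, SE 0.375, adjusted p 0.000420). On HFD the tissues differed by 0.39 on the log2 scale, with a 95% interval of -0.42 to 1.20. The diet change in mesentery was -0.71 (adjusted p 0.868), and the difference of the diet changes between the tissues, -2.33, did not pass in limma (adjusted p 0.312) but did in DESeq2 (adjusted p 0.0182). The epididymal fall passed with edgeR (adjusted p 0.0229) and DESeq2 (adjusted p 1.31e-10), and in 18 of 19 alternatives in all. It missed the threshold, at a log2 change of -2.98 and an adjusted p of 0.0804 (limma), when epididymal libraries C on chow and A on HFD, numbered 87 and 88, were left out together. The fall did pass with only the libraries numbered 50 to 53, which leaves out the libraries 87 and 88 of both tissues. Summed adipocyte markers moved with Gsta3, from 71477 to 95856 on chow to 7476 to 19367 on HFD, and their part in its fall was not tested.

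The related alpha class gene Gsta4, whose enzyme is known for its activity toward 4-hydroxynonenal, was at 598, 425 and 325 normalized counts in epididymal chow libraries and 175, 170.1 and 90.6 on HFD, with no overlap. Mesentery libraries ranged over 89.8 to 204 on both diets. On chow Gsta4 was higher in epididymal fat than in mesentery, by 1.48 (SE 0.356, adjusted p 0.0151, limma). That call was lost without epididymal chow library A or B (adjusted p 0.0860 and 0.0559) and without mesentery chow library A or B (adjusted p 0.0599 and 0.0580). Its diet change in epididymal fat was -1.64 (SE 0.356, adjusted p 0.0661), which did not pass, although it did in DESeq2 (adjusted p 0.00212) and, in limma, with a minimum mean of 50. Gsta1 and Gsta2 were near the detection floor in most libraries and are near-identical copies whose reads are uncertain.

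Summed by class, mu transferases had the highest normalized counts of the transferases in every group, and Gstm1 held most of that sum. Over all libraries Gstm1 averaged 16002 normalized counts and the next mu gene, Gstm2, 4035, below Gstp1 of the pi class at 4968. Gstm1 had the highest level per kb of exon in the set in 3 of the 4 groups and followed Prdx1 in epididymal fat on HFD. It was at 14427, 18089.7 and 9367 normalized counts in mesentery on chow, 12549, 16838 and 8656 there on HFD, 27942, 21039 and 17298 in epididymal fat on chow and 9107, 23241 and 13475 on HFD. Neighbouring groups overlapped, and Gstm1 passed in no contrast. Gstm5 was higher in epididymal fat on chow, at 1480.2, 768 and 558 against 247, 386 and 286 in mesentery (log2 1.51, SE 0.342, adjusted p 0.0111, limma). Gstm4 was at 244, 199.8 and 153 against 28.5, 80.6 and 91.5 (log2 1.70, SE 0.428, adjusted p 0.0195). Both calls were lost without library A of either tissue: without epididymal chow library A the adjusted p was 0.0536 for Gstm5 and 0.0931 for Gstm4, and without mesentery chow library A it was 0.0546 and 0.0719. Gstm4 also missed the threshold without epididymal chow library B (adjusted p 0.0730) and in a fit of only the groups compared. Gstm7 was lower in every epididymal HFD library (71.9, 166 and 97.7 normalized counts) than in any chow library (305, 275 and 187), but its log2 change of -1.24 did not pass (SE 0.426, adjusted p 0.353). Gstm2 did not overlap between the tissues on chow, at 4240 to 7782 normalized counts in epididymal fat and 1756 to 3657 in mesentery. Its log2 difference of 1.11 did not pass (SE 0.346, adjusted p 0.0515, limma). It did in 9 of 19 alternatives, DESeq2 among them (adjusted p 0.0157). Genes of this class lie in a cluster of similar sequence, so reads may be split among them.

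Theta class transferases, which act on small halogenated compounds and lipid peroxides, differed between the tissues. Gstt1 was at 3282, 2453 and 2263 normalized counts in epididymal fat on chow and 391, 422 and 255 in mesentery, a 7.55-fold difference (log2 2.92, SE 0.268, adjusted p 1.85e-05, limma). With HFD, Gstt1 was at 1240.0, 2005 and 1282 and 579, 351 and 386, a 3.43-fold difference (adjusted p 0.00120). Every epididymal library was above every mesentery library on both diets. Gstt2 was at 6055, 5925 and 5076 in epididymal fat on chow, 2055, 4480.1 and 2832 there on HFD, 964, 1252 and 1221 in mesentery on chow and 1995, 1275 and 1269.7 there on HFD. Its tissue difference was 2.32 on chow (adjusted p 9.97e-05) and 1.00 on HFD (adjusted p 0.0335). The latter was lost without epididymal HFD library B or C (adjusted p 0.123 and 0.101) and without mesentery HFD library B or C (adjusted p 0.142 and 0.0972). It was also lost with edgeR (adjusted p 0.0829) and, in limma, with TMM factors, with the columns rescaled to the same total and in a fit of only the groups compared (adjusted p 0.0878, 0.109 and 0.0762). Gstt3 was higher in epididymal fat on chow by 1.09 (adjusted p 0.00671). Summed over the 4 genes of the class, the 3 epididymal libraries ranged over 8183 to 10334 normalized counts on chow and 3785 to 7259 on HFD, without overlap, and those of mesentery over 1818 to 2203 and 2137 to 3135.

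The pi, kappa and omega classes hold few genes. Gstp1, a general detoxifying transferase, was at 6299.8, 6187 and 5909.9 normalized counts in epididymal fat on chow and 3637, 5033 and 4199 on HFD, with no overlap and a log2 change of -0.53 that did not pass (SE 0.188, adjusted p 0.395, limma). Its near-identical neighbour Gstp2, whose reads may be shared with it, changed by -0.53 (adjusted p 0.280). Gstk1, a mitochondrial and peroxisomal transferase, was at 912, 871 and 864 on chow and 344, 605 and 464 on HFD in epididymal fat (log2 -0.94, adjusted p 0.186). Gsto1, an omega class enzyme that reduces glutathione-protein mixed disulphides, was higher in every HFD library than in any chow library of epididymal fat. It was at 453, 611 and 436 normalized counts in epididymal chow libraries and 1043, 739.9 and 1207 in HFD libraries, a log2 change of 0.98 that did not pass (SE 0.284, adjusted p 0.204). Mesentery had 131, 192 and 182 on chow and 226, 154 and 312 on HFD, below all epididymal libraries, and the tissue difference was 1.57 on chow (adjusted p 0.00280) and 2.14 on HFD (adjusted p 0.000489). Summed macrophage markers were also higher in the HFD libraries of epididymal fat, going from 6489 to 87970.5 to 154407 to 390839, and their part in the values of Gsto1 was not tested.

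**Figure D3:**
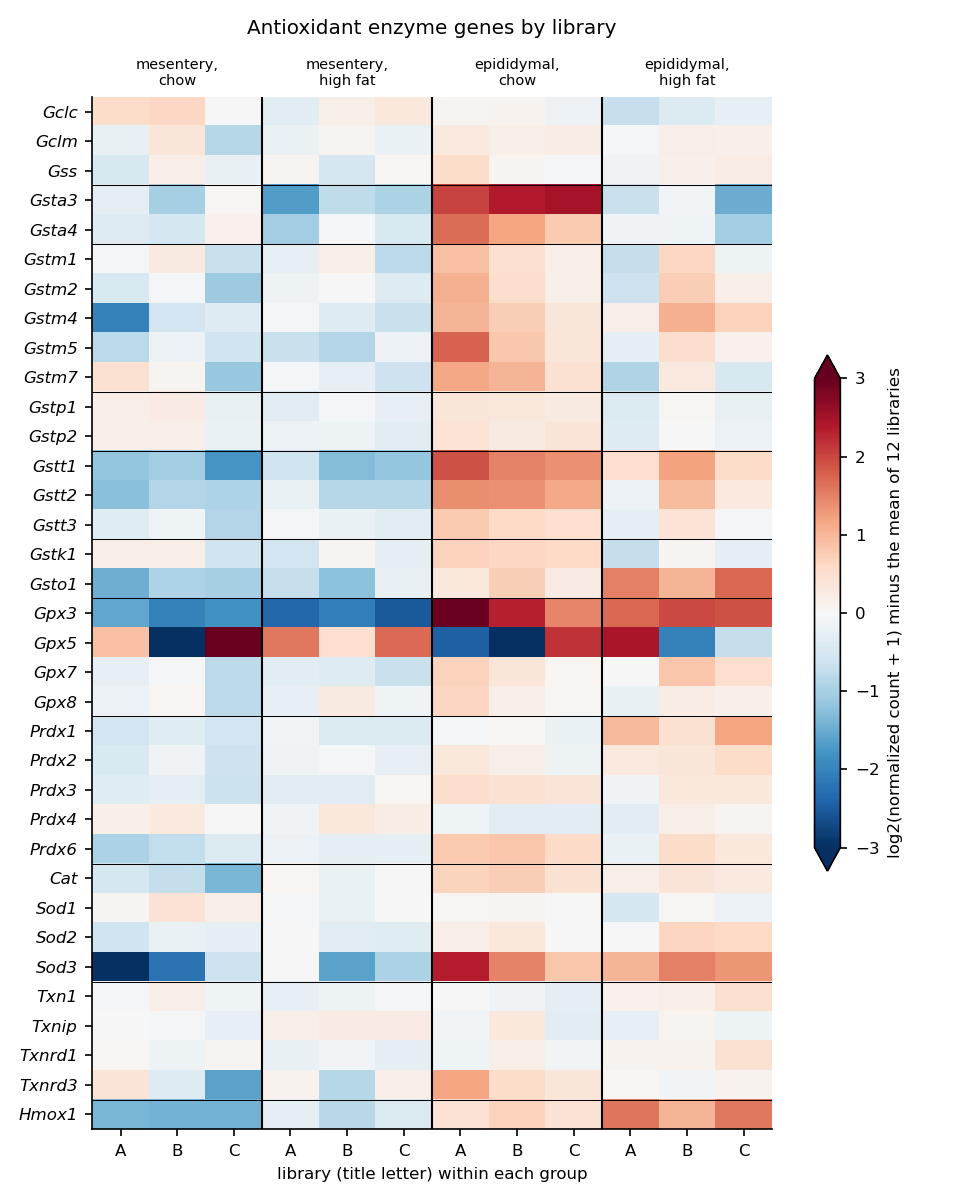
Heat map of the 35 genes with a mean of at least 50 normalized counts (rows, ordered by enzyme class) in the 12 libraries (columns), coloured by log2(normalized count + 1) minus the gene's mean over all libraries. Gpx3, Sod3, Gstt1, Gstt2 and Hmox1 are redder in epididymal than in mesentery libraries, Gsta3 is dark red in the 3 epididymal chow libraries alone, and Gpx5 varies from library to library within groups.

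Glutathione peroxidases reduce peroxides, many of them with glutathione. Gpx3, the secreted plasma form, showed the largest tissue difference of the set. It was at 18696, 11998 and 6578 normalized counts in epididymal chow libraries and 809.6, 581 and 673 in mesentery, 16.7-fold apart (log2 4.06, SE 0.297, adjusted p 3.83e-06, limma). Under HFD it was at 7833, 9495 and 8949.9 and 469, 564 and 416, 18.2-fold apart (log2 4.18, adjusted p 2.92e-06). Per kb of exon Gpx3 had rank 2 of the 44 genes in epididymal fat on chow and rank 4 there on HFD. The diet changes, -0.38 in epididymal fat and -0.51 in mesentery, did not pass, and the difference between them was 0.12 (95% interval -0.78 to 1.03). Both tissue calls were kept in all 19 alternatives on chow and all 18 on HFD. The part of the marker differences given above in the values of Gpx3 was not tested.

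Gpx7 and Gpx8, peroxidases of the endoplasmic reticulum, differed less. Gpx7 was at 486, 856 and 682 normalized counts in epididymal fat and 379, 370.1 and 304 in mesentery on HFD (log2 0.91, SE 0.259, adjusted p 0.0464, limma). That call sat close to the threshold and was lost without epididymal library B or C (adjusted p 0.178 and 0.158) and without mesentery library A, B or C (adjusted p 0.0893, 0.115 and 0.121). It was also lost with edgeR (adjusted p 0.0986) and, in limma, with no filter, TMM factors, rescaled columns and a fit of only the groups compared (adjusted p 0.0561, 0.128, 0.0508 and 0.0532). Gpx8 averaged 1205 ± 274 in epididymal fat and 806 ± 224 in mesentery on chow (SD, n = 3), a difference of 0.60 that did not pass (adjusted p 0.140).

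Gpx5, an epididymal secretory protein, varied within every group. It was at 56.9, 0.896 and 319.6 normalized counts in mesentery on chow, 91.7, 43.0 and 99.8 there on HFD, 4.70, 1.74 and 139 in epididymal fat on chow and 168, 6.61 and 17.7 on HFD. Reads on 695 odorant and vomeronasal receptor genes, which endothelial cells are not known for, varied in the same libraries. The 4 libraries with over 1000 cpm of such reads (cpm, reads scaled by the library total; 1995 to 3178 cpm) had 99.8 to 319.6 normalized counts of Gpx5, and the other 8 libraries (105 to 982 cpm) had 0.896 to 91.7. Gpx6, with 10.9 to 38.0 in the former and 0 to 10.2 in the latter, did not overlap either, whereas the other 8 genes with means under 50 overlapped between these libraries. The summed level of all 9 was 111 to 276 and 88.7 to 229 normalized counts. No group difference passed for Gpx5, and the part of this background in its values was not tested. Gpx6, Gpx2 and Gsta1 lay under the minimum mean of 10 and were not tested. In all 9 genes, these and Gsta2, Gstm3, Gstm6, Gsto2, Gstp3 and Gstt4, had means under 50, and those tested passed in no contrast.

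**Figure D4:**
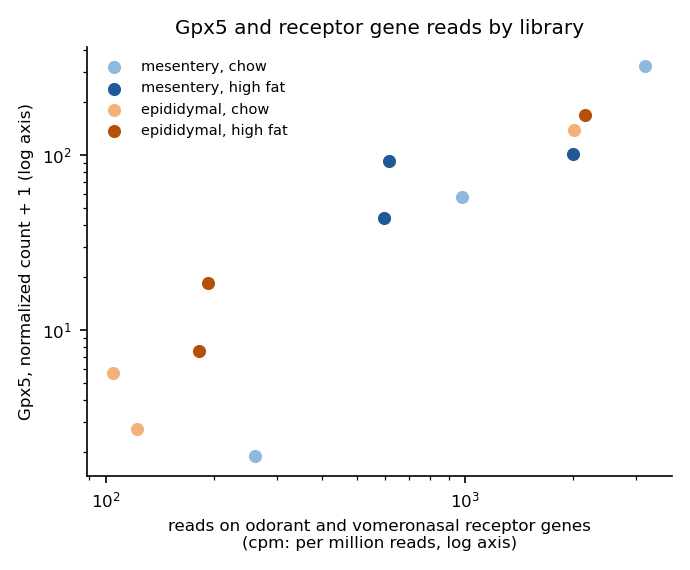
Gpx5 (y axis, normalized count + 1, log axis) against reads on odorant and vomeronasal receptor genes in cpm (x axis, log axis) in the 12 libraries, coloured by group. Libraries of 1 group lie far apart, and the 4 libraries with over 1000 cpm have the 4 highest values of Gpx5.

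Most peroxiredoxins reduce hydrogen peroxide with thioredoxin. Prdx1, the abundant cytosolic form, had the highest mean normalized count of the set. It was at 16713, 17839.8 and 15086 normalized counts in epididymal fat on chow and 33598, 23558 and 39263 on HFD, while mesentery had 11566, 13327 and 11634 on chow and 16193, 12657 and 12943 on HFD. The 3 epididymal HFD libraries stood above the other 9. On HFD Prdx1 was 2.27-fold higher in epididymal fat than in mesentery (log2 1.18, SE 0.240, adjusted p 0.00867, limma), a call lost without epididymal library C (adjusted p 0.0532) or mesentery library B (adjusted p 0.0536), or in a fit of only the groups compared (adjusted p 0.0588). Its diet change in epididymal fat was 0.93 (SE 0.240, adjusted p 0.149) and did not pass, although it did in DESeq2 (adjusted p 6.21e-05). Summed macrophage markers were highest in the same 3 libraries, and their part was not tested.

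Prdx6, which also acts on oxidised phospholipids, was at 4379, 4526 and 3797 normalized counts in epididymal fat on chow and 1309, 1522 and 1911 in mesentery (log2 1.43, SE 0.205, adjusted p 0.000558, limma). On HFD it was at 2234, 3752 and 3148 in epididymal fat and 2254, 2107 and 2069 in mesentery, which overlapped. Prdx3, the mitochondrial peroxiredoxin, was higher in epididymal fat on chow, at 1519, 1441 and 1373 against 822, 874 and 670.2 (log2 0.88, adjusted p 0.00595). Prdx4, the peroxiredoxin of the endoplasmic reticulum, was lower in every epididymal chow library (1863, 1624 and 1626) than in any mesentery chow library (2267, 2491 and 2072), but the difference of -0.42 did not pass (adjusted p 0.171). Prdx2 averaged 2317 ± 426 and 2767 ± 192 in mesentery and 3313 ± 535 and 4021 ± 382 in epididymal fat, on chow and HFD (SD, n = 3). It passed in no contrast at the settings used throughout. Between the tissues it passed on both diets with DESeq2 or with the number range as a covariate, and on chow with rescaled columns or without epididymal chow library C.

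Among the superoxide dismutases the extracellular form, Sod3, passed. Sod3 was at 2679, 1480.4 and 927 normalized counts in epididymal fat on chow and 58.1, 113 and 342 in mesentery, 11.7-fold apart (log2 3.55, SE 0.567, adjusted p 0.00122, limma). The HFD libraries had 1062, 1496 and 1312 and 528, 170.5 and 272, 4.39-fold apart (log2 2.13, SE 0.567, adjusted p 0.0347). Values spread widely within mesentery on chow, and the groups of the tissues did not overlap on either diet. The HFD call was lost without epididymal library A, B or C (adjusted p 0.0559, 0.104 and 0.121) and without mesentery library B or C (adjusted p 0.159 and 0.0758), and also with edgeR (adjusted p 0.0856) and with the columns rescaled to the same total (adjusted p 0.0849). Sod1, the cytosolic copper-zinc enzyme, ranged over 1609 to 2481 in mesentery and 1297 to 1950.4 in epididymal fat. Sod2, the mitochondrial manganese enzyme, ranged over 1273 to 1908 and 1922 to 3008. Neither passed in any contrast at the settings used throughout, but Sod2 passed as higher in epididymal fat on both diets with only the libraries numbered 50 to 53. On HFD it also passed with DESeq2, with a minimum mean of 50 or without epididymal HFD library A.

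Catalase, the peroxisomal enzyme that breaks down hydrogen peroxide, was at 1091, 963 and 614 normalized counts in mesentery on chow and 1635, 1376 and 1589 on HFD. In epididymal fat it was at 2512, 2643 and 2173 on chow and 1776, 2071 and 1936 on HFD. Chow and HFD libraries were separate in both tissues, HFD being the higher in mesentery and the lower in epididymal fat. The mesentery change was 0.82 (SE 0.204, adjusted p 0.398, limma) and passed in DESeq2 (adjusted p 0.0233), and the epididymal change was -0.34 (adjusted p 0.959). On chow Cat was 2.82-fold higher in epididymal fat (log2 1.49, SE 0.204, adjusted p 0.000395), and on HFD the difference was 0.33 (95% interval -0.11 to 0.77, adjusted p 0.415).

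The thioredoxin system passed in no contrast in limma. On HFD, Txn1 was nevertheless higher in every epididymal library than in any mesentery library, which had 3798, 4044 and 4417 normalized counts. That tissue difference was 0.42 on the log2 scale (adjusted p 0.170, limma) and passed in DESeq2 (adjusted p 0.0202). Txnip, which binds and inhibits thioredoxin, was among the most abundant transcripts of the set, at 8442, 8056 and 7048 normalized counts in mesentery on chow and 9549.8, 9975 and 9931 on HFD, without overlap (log2 0.33, adjusted p 0.899). In epididymal fat it was at 7925, 10505 and 6759 and 7039, 8954 and 7569.7, which overlapped. Txn1, cytosolic thioredoxin, was at 4488, 4196 and 3728 in epididymal fat on chow and 4946, 5211 and 6336 on HFD (log2 0.41, adjusted p 0.604). The reductases Txnrd1 and Txnrd3 changed by 0.23 and -0.67 there (adjusted p 1.00 for each).

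Hmox1, which degrades haem, was at 189, 182 and 182 normalized counts in mesentery on chow and 398, 274 and 359 on HFD. In epididymal fat it was at 652, 781 and 657 on chow and 1482, 985 and 1461 on HFD. None of the 4 groups overlapped another, in the order mesentery on chow, mesentery on HFD, epididymal fat on chow and epididymal fat on HFD. The tissue difference was 1.91 on chow (SE 0.208, adjusted p 6.90e-05, limma) and 1.92 on HFD (adjusted p 9.87e-05). The diet change was 0.88 in mesentery (adjusted p 0.362) and 0.89 in epididymal fat (adjusted p 0.0976), and passed in neither, whereas DESeq2 called both (adjusted p 0.0148 and 0.00155). The diet changes differed by 0.01 between the tissues, with a 95% interval of -0.62 to 0.64. The summed macrophage markers were also higher in epididymal fat on HFD (154407 to 390839) than in any other group. On chow they overlapped between epididymal fat (6489 to 87970.5) and mesentery (1582 to 7981). Mesentery on HFD had 4679 to 25949, and the part of these markers in the values of Hmox1 was not tested.

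**Figure D5:**
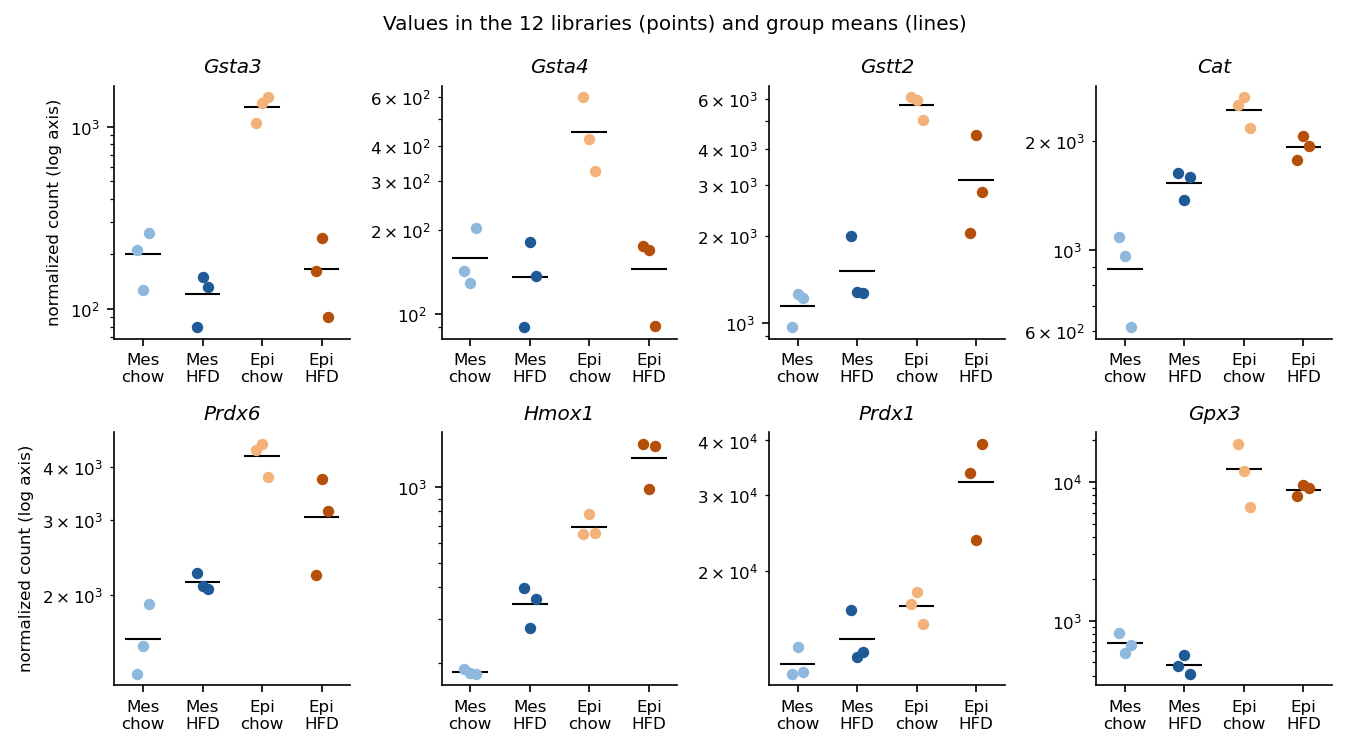
Normalized counts (y axes, log scale) of 8 genes in the 12 libraries (points) with group means (lines), for mesentery (Mes) and epididymal fat (Epi) on chow and on HFD. Gsta3 and Gsta4 are high in epididymal chow libraries alone, Hmox1 climbs over 4 groups that do not overlap, and the HFD libraries of Cat and Prdx6 lie above the chow libraries in mesentery and below them in epididymal fat.

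Whether the diet acted differently in the tissues was tested for each gene. In limma 0 of the 41 genes passed, while 0.0045% of all genes tested did. An unadjusted p under 0.05 was reached by 9 genes of the set, against 4.71% of all genes, and the difference was above 0 for 14 genes, against 56.3%. The edgeR test called 0 (6 at an unadjusted p under 0.05) and DESeq2 called 2, Cat and Gsta3. The median of this difference was -0.27, beside 0.11 over all genes tested.

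Some well-known enzymes of the same families carry another biotype than protein coding in the table and were therefore not members. Gpx1 (ENSMUSG00000063856), the ubiquitous cytosolic peroxidase, was at 3128, 5212 and 2949 normalized counts in epididymal fat on chow and 10919, 8093 and 16524 on HFD, without overlap, and its rise was 1.64 in log2 units (SE 0.271, adjusted p 0.0158, limma). The rise passed in 10 of 19 alternatives and missed the threshold with edgeR (adjusted p 0.0926). The summed macrophage markers were higher in the same HFD libraries (6489 to 87970.5 on chow and 154407 to 390839 on HFD), and their part in the values of Gpx1 was not tested. Mesentery had 1503, 1942 and 1525 on chow and 2054, 1785 and 2233 on HFD, and epididymal fat was higher by 1.14 on chow (adjusted p 0.0141) and 2.49 on HFD (adjusted p 0.000101). Gpx4, which reduces lipid hydroperoxides in membranes, was higher in epididymal fat on chow by 0.93 (adjusted p 0.00985), and Prdx5, another peroxiredoxin, by 1.25 on chow (adjusted p 0.00334) and 0.91 on HFD (adjusted p 0.0289). On HFD the Gpx4 difference of 0.64 did not pass (adjusted p 0.0798, limma). The HFD call of Prdx5 was kept in 11 of 18 alternatives and lost with edgeR (adjusted p 0.0870). Gsr, glutathione reductase, ranged over 487 to 974 normalized counts over the 12 libraries.

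Other genes of these pathways were counted from 6 lists. Of 24 tested regulators and further targets of Nrf2, none passed the diet contrast in mesentery and 2 fell in epididymal fat, beside 0.13% lower among all genes. They were Nqo1, by 1.25 (SE 0.234, adjusted p 0.0319, limma), and Osgin1, by 1.62 (SE 0.306, adjusted p 0.0349). Nqo1, a quinone reductase, was at 1106, 871 and 1054 normalized counts on chow and 335, 542 and 411 on HFD in epididymal fat, with no overlap. Between the tissues on chow 5 of the 24 were higher in epididymal fat and 0 lower, beside 7.32% higher among all genes: Akr1b8, Blvrb and Fth1 besides Nqo1 and Osgin1, which differed by 1.27 and 1.65 (adjusted p 0.00314 and 0.00330). On HFD 4 were higher, Blvra, Blvrb, Fth1 and Ftl1, and 1 lower, Abcc4, beside 4.91% higher among all genes, and Nqo1 and Osgin1 did not pass. The list's median log2 change with the diet in epididymal fat was 0.02, beside 0.10 over all genes. Nfe2l2 itself averaged 3266 ± 235 and 2780.3 ± 353 in mesentery and 2615 ± 229 and 2297 ± 369 in epididymal fat, on chow and HFD (SD, n = 3). Keap1 averaged 583 ± 73.5 and 486 ± 71.1 in epididymal fat. Neither passed, nor did Srxn1, the enzyme that repairs oxidised peroxiredoxins, with 609, 481 and 578 on chow and 625, 689.6 and 944 on HFD in epididymal fat. Slc7a11, the cystine transporter that feeds glutathione synthesis, changed by 0.50 there (SE 0.680, adjusted p 1.00).

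Of 31 other glutathione enzymes and transporters tested, 12 were higher and 0 lower in epididymal fat on chow, beside 7.32% higher among all genes, and their median difference was 0.85, beside -0.08. On HFD 6 were higher and 1, Cbs, lower, beside 4.91% higher among all genes, with a median of 0.69, beside 0.06. Dpep1, a dipeptidase of glutathione breakdown, was higher by 3.67 on chow and 4.88 on HFD (adjusted p 0.000147 and 1.89e-05, limma). The microsomal transferase Mgst1 was higher by 1.51 and 0.83 (adjusted p 0.000117 and 0.0113). Neither diet contrast called a gene of this list. NADPH supply genes, 17 in all, gave 3 higher and 1 lower on chow and 4 higher on HFD between the tissues, with Idh1 and G6pdx higher on both, and none with the diet. The shares of all genes that passed between the tissues in either direction were 12.8% on chow and 8.34% on HFD.

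Enzymes that produce superoxide or peroxide were counted as the opposing side. Of 20 tested, Cyba, the small subunit of the phagocyte and endothelial NADPH oxidases, rose with the diet in epididymal fat, from 6202, 7364 and 3606 to 16516, 14877 and 29122 normalized counts (log2 1.81, SE 0.295, adjusted p 0.0145, limma), and no other did. Among all genes tested 0.549% passed this contrast in either direction. Cybb, the catalytic subunit in phagocytes, was at 148, 889.6 and 182 on chow and 2198, 1191 and 2950.0 on HFD (log2 2.77, adjusted p 0.215). Nox4, the oxidase of endothelial cells, was at 19.6, 30.4 and 79.7 and 112, 47.1 and 41.1, which overlapped. Summed macrophage markers were also higher in these HFD libraries, and their part in the values of Cyba and Cybb was not tested. Between the tissues 5 genes of this list were higher in epididymal fat on chow and 3 on HFD, with none lower, beside 7.32% and 4.91% of all genes. Of 22 genes of selenoprotein synthesis or other selenoproteins, 1, Selenop, was higher in epididymal fat, on both diets (1.55 and 1.61), a share of the list below that of all genes. Of 23 redox partners, 5 were higher and 1 lower on chow and 5 were higher on HFD, among them the metallothionein Mt1 on both (2.14 and 2.74), beside 12.8% and 8.34% of all genes in either direction.

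Set against the depth of the libraries, all 44 genes together took 0.651% to 0.880% of the reads in the 6 epididymal libraries and 0.356% to 0.540% in the 6 mesentery libraries, without overlap. The share by group was 0.783 ± 0.0845% in epididymal fat on chow, 0.682 ± 0.0317% there on HFD, 0.435 ± 0.0698% in mesentery on chow and 0.501 ± 0.0428% there on HFD (SD, n = 3). The diets overlapped in mesentery but not in epididymal fat. The lowest share was that of mesentery chow library A, in which mitochondrial genes took 20.6% of the reads. Of the reads on other genes, a share computed after seeing these values, the set took 0.671% to 0.903% in epididymal fat and 0.449% to 0.574% in mesentery, again without overlap.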

How the data were processed

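RNA was sequenced from 12 libraries of sorted endothelial cells. The table the authors deposited gives a signal for each gene, its normalized count. The submitters' processing notes name STAR 2.7.9a, featureCounts, Subread, DESeq2 1.34.0 and the mm39 build, without saying how strand was used. Dividing each library by 1 constant turned all values into whole reads (100%, tolerance 0.001 reads), which served as counts for edgeR 4.0.16 and DESeq2 1.42.0 as alternatives.

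Contrasts were tested with limma 3.58.1 under R 4.3.3. Values entered as log2(normalized count + 1), a scale that understates changes of low genes, with a mean for each of 4 groups over all 12 libraries and eBayes with a mean-variance trend. Genes with a mean of at least 10 entered (22238 of 27825, and 41 of the 44 described). Benjamini-Hochberg adjustment ran over all genes tested within each of 5 contrasts, with a threshold of 0.05. The code was tested on simulated data. Groups were taken from the sample titles. Same-numbered libraries of the tissues, and same-lettered libraries of the diets, are not stated to share animals.

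The genes, lists and tests were chosen with earlier results of these data known. Genes described in full had an adjusted p under 0.05 in any contrast, were among the 5 largest diet changes of genes with a mean of at least 50, or had the 3 highest means. Others are named to complete a family and were chosen after their values were seen. From the lists, up to 4 genes past the threshold in each direction could be named, and Nfe2l2, Keap1, Nqo1, Slc7a11, Srxn1, Nox4 and Cybb whatever their values. Levels per kb use merged exon lengths of GENCODE M21, matched by gene. Alternatives changed the pseudocount, the filter, the scaling, the tool, the libraries and the blocks. The files' coordinates are not used here, and the promoter windows come from RefSeq on GRCm38.p6.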

Additional observations from a re-analysis of the deposited data

Results flagged for a closer look

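Cat, Prdx6 and Gstt2 drew attention because the normalized counts of the diet groups did not overlap in either tissue. They lay in opposite directions, higher on HFD in mesentery and lower in epididymal fat. As a share of library totals, mesentery chow library C stood above HFD libraries B and C for Prdx6 and Gstt2. For Gstt2 these were 867 of 8348897 reads, against 920 of 10566020 and 1285 of 14446405. For Prdx6 they were 1357, 1520 and 2094 of the same totals. Cat stayed separate in both tissues on that scale. The difference of the diet changes (epididymal minus mesentery) was -1.16 for Cat, -0.96 for Prdx6 and -1.31 for Gstt2, and none passed in limma (adjusted p 0.407, 0.600 and 0.559). DESeq2 called the difference for Cat (adjusted p 0.0195) and not for Prdx6 or Gstt2 (adjusted p 0.120 and 0.109). Such a pattern in the normalized counts was found in 3 of the 41 genes, or 7.32%, and in 133 of all 22238 genes tested, or 0.598%.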

How the results depend on the processing

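Leaving out 1 library at a time gave 0 called genes for the diet in mesentery and for the difference between the tissues, 1 to 3 for the diet in epididymal fat (3 without HFD library B, which adds Gstt2 and Hmox1), 11 to 16 for the tissues on chow and 4 to 9 for the tissues on HFD. On chow 20 genes passed with the columns rescaled to the same total and 19 with the number range as a covariate, the original 14 among them in both. DESeq2 called 2, 7 and 2 genes for the diet in mesentery, the diet in epididymal fat and the difference between the tissues, where limma called 0, 1 and 0. For the diet in epididymal fat, 2 genes passed with a minimum mean of 50, which adds Gsta4. With the columns rescaled to the same total or with the number range as a covariate 2 passed as well, each adding Gstk1. In that contrast 1 gene passed with only the libraries numbered 50 to 53, and 0 without epididymal libraries 87 and 88, a setting chosen after seeing the data. On HFD 5 genes passed with edgeR, 5 in a fit of only the groups compared and 11 with DESeq2, instead of 8. With the title letter as a replicate block the diet contrasts gave 0 genes in mesentery and 1 in epididymal fat. A replicate block on the description number gave 16 genes on chow, adding Gstk1 and Gstm2, 6 on HFD, without Gstt2 and Sod3 (adjusted p 0.0605 for each, limma), and 0 for the difference. The labels do not say what the numbers stand for. Correlations of deviations from the group means for libraries of the same number were 0.03, 0.53 and 0.58 on chow and -0.15, 0.15 and -0.11 on HFD. For the same letter within a tissue such correlations ranged from -0.68 to 0.44. So few correlations cannot decide whether libraries are paired, and the main fit was set without a replicate block. The Gpx5 diet change in mesentery, 1.18, turned to -0.61 with edgeR, -0.69 with DESeq2 and -0.87 without mesentery chow library B, and its change in epididymal fat, 1.15, to -0.12 without HFD library A; without the chow library C of the tissue concerned they were 2.83 and 2.87; the cause was not tested. Rescaling to the same total moved the median of all genes from -0.0023 to 0.12 for the diet in mesentery, from 0.10 to -0.03 in epididymal fat, from 0.06 to -0.11 for the tissues on HFD and from 0.11 to -0.15 for their difference. Depth limits the 9 genes with means under 50.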
